A study of Mus musculus with 14 samples.

Results

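The opioid system of the mouse is encoded by a small set of genes, of which 4 receptor genes (Oprm1, Oprd1, Oprk1 and Oprl1) and 3 peptide precursor genes (Penk, Pdyn and Pnoc) were examined here for the histone mark H3K4me3 in the prefrontal cortex. Members were chosen by name, and every peak summit inside one of these 7 genes or within 2 kb of it was taken. This gave 25 of the 153207 summits in the deposited table, and 7 of the 21038 genes with at least 1 summit. A summit is the position of highest signal in a called peak, and its value is a normalised read count, so that 1 unit is about 1 read in a library of typical depth.

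All animals were adult male C57BL/6J mice, 10 to 12 weeks old. Control mice (3 libraries) lived in divided cages without an aggressor. The group SDS10 (5 libraries) met an aggressive CD1 mouse daily for 10 days of social defeat stress and the group SDS30 (5 libraries) for 30 days, with the aggressor housed behind a perforated barrier between sessions. The cortex was dissected 24 hours after the final encounter, and stressed mice had also been through behavioural tests on days 8 to 9 or 28 to 29. All libraries carry 1 batch date. Whether each library stands for 1 animal is not stated, so the tests measure library-to-library spread, which may be partly technical.

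H3K4me3 is placed by SET1/MLL complexes on nucleosomes around the starts of genes that are active or poised, and its height tends to rise with the CpG content of the promoter. Opioid receptors are G protein-coupled receptors that act through Gi/o proteins to lower cyclic AMP, open inwardly rectifying potassium channels and close calcium channels. Enkephalins from Penk act mainly at the delta (Oprd1) and mu (Oprm1) receptors, dynorphins from Pdyn at the kappa receptor (Oprk1), and nociceptin from Pnoc at the nociceptin receptor (Oprl1). In cortex these genes are known to be expressed in subsets of neurons, the peptides largely in interneurons. In a tissue sample, fewer cells that carry the mark and less mark per cell cannot be told apart.

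Between 4512817 (SDS10 replicate 4) and 10887911 reads (control replicate 1) fell on all summits of a library, but only 0 to 89 reads (median 33) fell on the strongest summit of an opioid gene in any 1 library. Counting error alone is therefore large for these genes. All 25 summits passed the filter on low values. Among markers of cell types, 7 of 7 of excitatory cortical neurons and 6 of 8 of inhibitory neurons had a summit, the exceptions being Sst and Vip. All 6 markers of striatal projection neurons, a neighbouring tissue where Penk and Pdyn are high, had one too, with summed levels of 397 to 418 in control, 352 to 532 in SDS10 and 327 to 455 in SDS30. The 6 inhibitory markers with a summit summed to 206 to 221 in control, 141 to 220 in SDS10 and 205 to 263 in SDS30. Of the striatal markers, Rgs9 is also among the pathway genes used further on. Of 4 microglia markers 1 had a summit, and none was found at Cx3cr1, Csf1r and Aif1. Of the other non-neuronal markers, 4 of 4 for astrocytes, 3 of 3 for endothelial cells and 2 of 4 for oligodendrocytes had a summit. Such counts do not check the tissue, since 15248 protein-coding genes had a summit.

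Promoter sequences of 4 of the 7 genes were matched by symbol in the RefSeq promoter table (GRCm38.p6, the same coordinates as mm10), and are shown because the mark sits on them or directly beside them and because they differ sharply in CpG content. Each is printed 5′ to 3′ on the gene's own strand and ends just upstream of an annotated transcription start, with CpG dinucleotides in capitals. Oprm1 is chr10:6788320-6788569 on the plus strand and holds 4 CpG. Oprd1 is chr4:132144487-132144736 on the minus strand and holds 34. Oprl1 is chr2:181714766-181714999 on the plus strand and holds 2, and Pdyn is chr2:129699939-129700188 on the minus strand and holds 8.
Oprm1: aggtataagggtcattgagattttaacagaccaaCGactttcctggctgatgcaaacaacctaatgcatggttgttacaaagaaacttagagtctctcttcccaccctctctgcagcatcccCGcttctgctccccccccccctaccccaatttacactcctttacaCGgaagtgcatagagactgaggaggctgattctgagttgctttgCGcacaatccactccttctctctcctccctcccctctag
Oprd1: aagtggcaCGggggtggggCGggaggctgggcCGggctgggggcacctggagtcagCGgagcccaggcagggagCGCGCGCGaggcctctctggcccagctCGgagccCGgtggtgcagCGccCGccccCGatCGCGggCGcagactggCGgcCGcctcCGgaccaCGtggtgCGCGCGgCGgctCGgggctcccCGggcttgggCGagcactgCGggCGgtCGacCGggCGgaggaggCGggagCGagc
Oprl1: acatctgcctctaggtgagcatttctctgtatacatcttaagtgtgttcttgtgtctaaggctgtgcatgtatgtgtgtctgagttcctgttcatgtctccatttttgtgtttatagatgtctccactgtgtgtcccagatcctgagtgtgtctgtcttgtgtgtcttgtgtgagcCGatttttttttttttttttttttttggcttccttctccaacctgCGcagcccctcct
Pdyn: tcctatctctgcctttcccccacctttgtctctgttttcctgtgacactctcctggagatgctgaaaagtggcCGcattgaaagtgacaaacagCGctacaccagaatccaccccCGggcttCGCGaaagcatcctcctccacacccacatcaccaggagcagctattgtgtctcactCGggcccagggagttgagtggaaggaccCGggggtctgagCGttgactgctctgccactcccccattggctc

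In windows of 300 bases (250 before to 50 after a start), the Oprd1 promoter held 43 CpG, more than 97.4% of the 32851 promoters in the table, whose median was 7. Pdyn held 11, more than 58.6% of them. The Oprm1 window and the windows of Oprl1 held between 2 and 5. Searched on both strands, the GC box GGGCGG, a binding motif of Sp factors, occurred 4 times in the Oprd1 window, at -234, -128, -35 and -23 from the start, and 35.7% of all promoter windows hold it. The E-box CACGTG, which reads the same on both strands, occurred there once, at -86 (7.15% of all windows), and overlaps none of the GC boxes. The TATA box TATAAA occurred in 1 Oprl1 window, at -140 on the minus strand (13.6% of windows). The cyclic AMP response element TGACGTCA (1.79% of windows) and the AP-1 motif TGACTCA (5.20%) had no match in the windows of these 4 genes. Such matches describe the sequence and are not evidence of binding.

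The mark lay on groups of summits about a nucleosome apart, most of them close to a boundary or an annotated start of the gene. Of the 25 summits, 19 lay inside a gene and 6 outside it, none further than 324 bp away, and no summit lay between 2 and 10 kb from any of the 7 genes. Neighbouring summits of the same gene were 137 to 355 bp apart in 16 cases, with a median of 201 bp against 199 bp over the whole table. Such neighbours can share reads, so they do not replicate each other. Oprm1 (chr10:6758593-7038209) had 3 summits 77, 275 and 412 bp downstream of a start at base 6788576, and no summit within 2 kb of the most upstream start of the gene. Its other 2 summits lay 190881 and 191110 bp downstream of that start, and 824 and 595 bp from an annotated start of Ipcef1, a gene that overlaps Oprm1, so whether they belong to Oprm1 cannot be told from position. Oprd1 (chr4:132110188-132144486, minus strand) had 5 summits between 232 bp upstream and 730 bp downstream of its start, and 1 that lay 30672 bp downstream inside the gene. Oprl1 (chr2:181715000-181720985) had 4 summits over 3 annotated starts, the nearest start being 13 to 167 bp from each summit. Pdyn (chr2:129686549-129699938, minus strand) had 1 summit 63 bp upstream and 1 that lay 166 bp downstream of its start. The single Oprk1 summit lay 12 bp outside the first base of the gene (chr1:5588450-5606134). Penk (chr4:4133536-4138815) had 4 summits from 228 bp inside to 324 bp outside its highest coordinate. Pnoc (chr14:65400673-65425564) had 3 summits 1579 to 2057 bp inside its highest coordinate. For Oprk1, Penk and Pnoc no distance to an annotated start was computed. Their bounds are given in order of coordinate and do not tell the start of the gene from its end. The map of summits shows these groups with their levels.

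**Figure D1:**
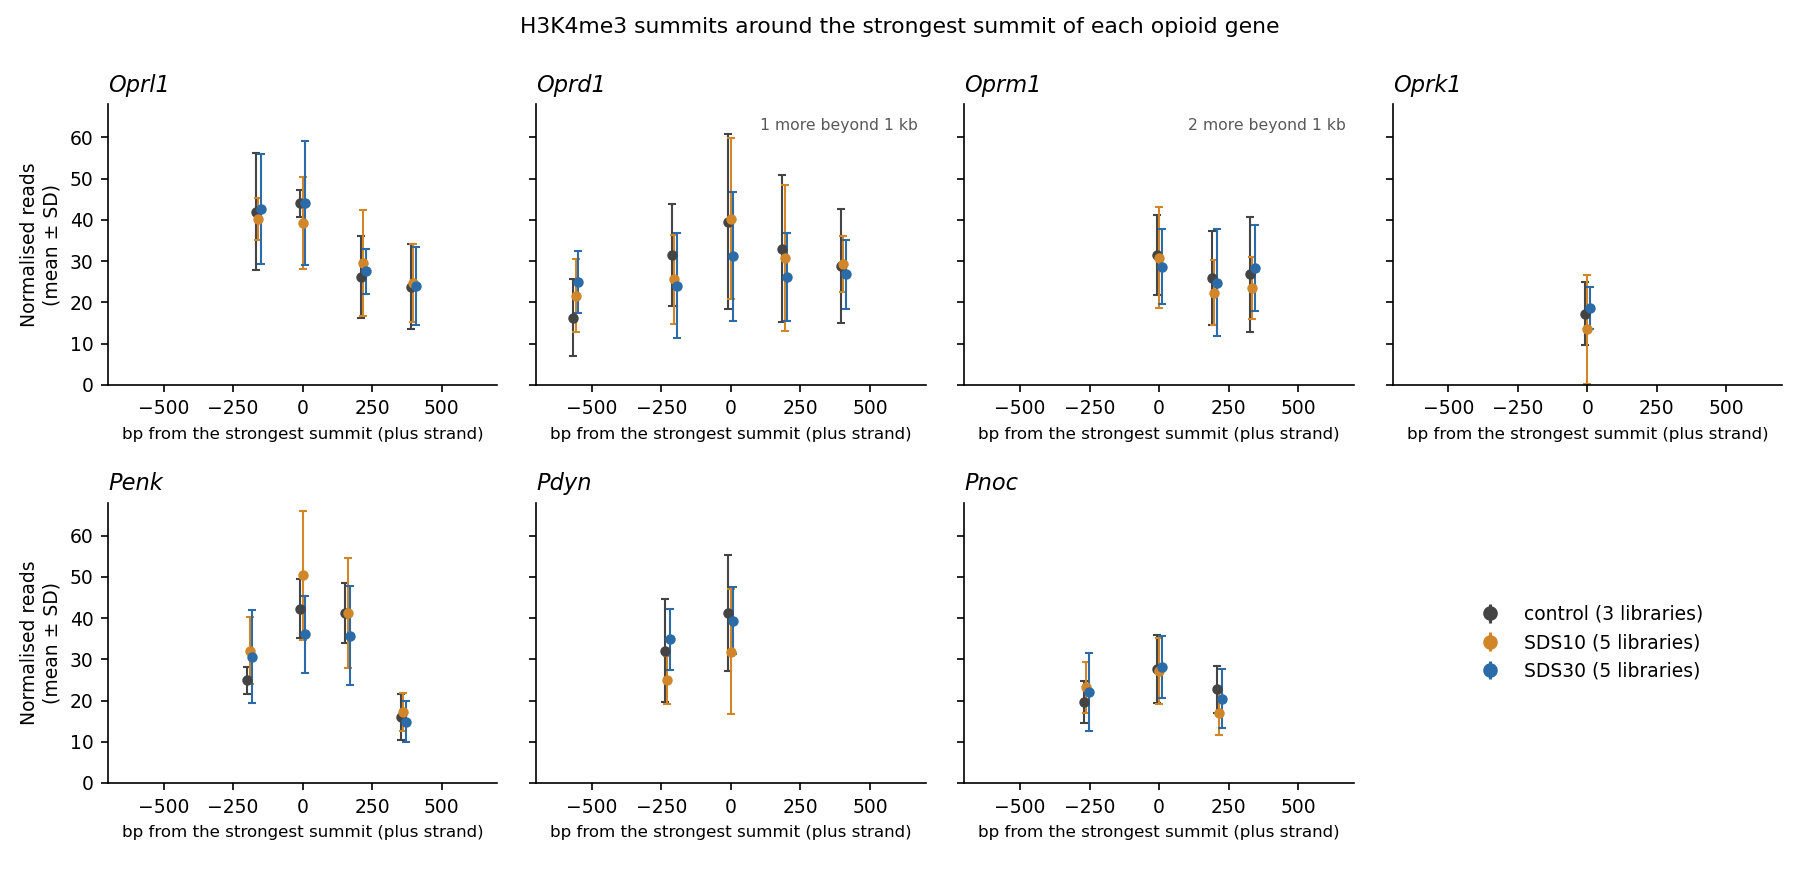
H3K4me3 at the summits of each opioid gene, plotted by distance in bp from the gene's strongest summit along the plus strand (x) against normalised reads (y, mean ± SD over 3 control, 5 SDS10 and 5 SDS30 libraries). Oprk1 had 1 summit and the other genes 2 to 6, and the error bars of the 3 groups overlap at every summit shown.

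All 7 genes carried little of the mark. In control libraries their strongest summits ranged from 17.2 normalised reads at Oprk1 to 44.0 at Oprl1, where the median over the strongest summits of 15248 protein-coding genes with a summit was 98.9. The share of those genes at a lower level was 12.48% for Oprl1, 11.6% for Penk, 11.04% for Pdyn, 10.4% for Oprd1, 6.83% for Oprm1, 5.29% for Pnoc and 1.33% for Oprk1. Counted from the highest, neighbours in this order differed by less than the larger of their SDs, except Pnoc and Oprk1, which differed by 10.46 normalised reads. The precursor gene Pomc, which encodes the precursor of beta-endorphin and is not a member, was at 107 ± 16.6 (SD, n = 3) in control.

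The 4 genes with a promoter sequence were all below the median of genes with like CpG counts, Oprl1 the least. Oprd1, at 39.6 in control, was above 1.496% of the 401 protein-coding genes within 2 CpG of its count, whose median was 103. Pdyn, at 41.2, was above 13.2% of 1269 genes with a median of 90.5. Oprm1, at 31.5, was above 21.3% of 729 genes with a median of 58.6, and Oprl1, at 44.0, above 44.7% of 356 genes with a median of 50.1. These are descriptions of control means, and no test between genes was made. The plot of promoter CpG count against level shows Oprd1 far below the genes of its class.

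**Figure D2:**
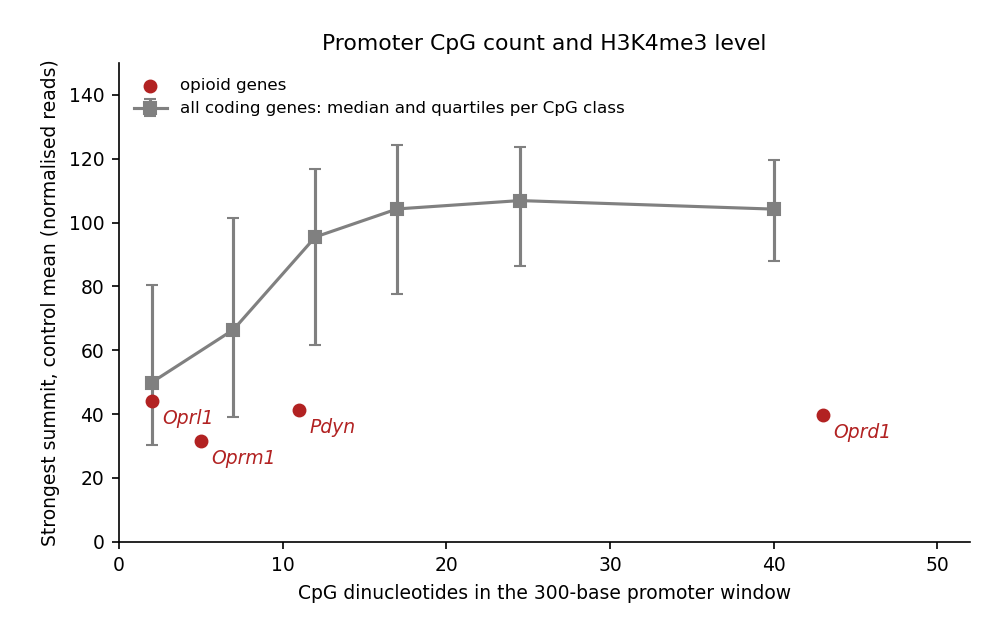
Control level of the strongest summit (y, normalised reads, mean of 3 libraries) against the number of CpG dinucleotides in the 300-base promoter window (x), with the 4 opioid genes in the RefSeq promoter table as red points and the median and quartiles of 10711 protein-coding genes in 6 classes of CpG count in grey. Oprd1 lies at 39.6 where genes with 30 or more CpG have a median of 104 and quartiles of 87.99 and 120, and Oprl1 lies near its class median of 49.9.

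Libraries of the same group differed from each other at the opioid genes. In control replicate 1, only 3 of the 25 summits were above their mean over the 13 libraries, and the median difference from that mean was -0.49 on the log2 scale. In control replicates 2 and 3, 21 of 25 summits each were above it, with medians of 0.28 and 0.27. SDS10 replicate 2 had 21 of 25 above and a median of 0.54, and SDS30 replicate 5 had 24 of 25 above and a median of 0.54. SDS10 replicate 5 and SDS30 replicate 3 were on the low side, with 8 and 5 summits above and medians of -0.34 and -0.34. Each group thus held libraries on both sides.

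Over other weakly marked genes the median shifts were smaller, but a median over 1673 genes moves less than a median over 25 summits of 7 genes. That larger set also used strongest summits only, and no set of like size was drawn. Whether the shifts are particular to the opioid genes was thus not tested. The strongest summits of 1673 other protein-coding genes with levels of 16 to 43 normalised reads had medians of 0.04 in control replicate 1, -0.09 in SDS10 replicate 2 and 0.16 in SDS30 replicate 5, and lay between -0.14 and 0.16 in all 13 libraries. Markers of neurons and of other cell types differed between these libraries as well. The summed level of the 7 excitatory markers was 377 in control replicate 1, 514 in SDS10 replicate 2 and 446 in SDS30 replicate 5, where the controls ranged from 351 to 389. The summed level of the 6 inhibitory markers with a summit was 206 in control replicate 1, the lowest of all libraries at 141 in SDS10 replicate 2 and the highest at 263 in SDS30 replicate 5. The 6 striatal markers summed to 397, 532 and 455 in the same libraries. The 4 astrocyte markers summed to 247, 179 and 214 there, and the 3 endothelial markers to 157, 136 and 134. The 2 oligodendrocyte markers with a summit summed to 122, 136 and 111, and the 1 such microglia marker was at 23.1, 12.7 and 10.1. For these other cell types the controls ranged from 182 to 247, 114 to 157, 96.3 to 123 and 13.9 to 23.1. The part of these cell types in the library differences was not tested.

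**Figure D3:**
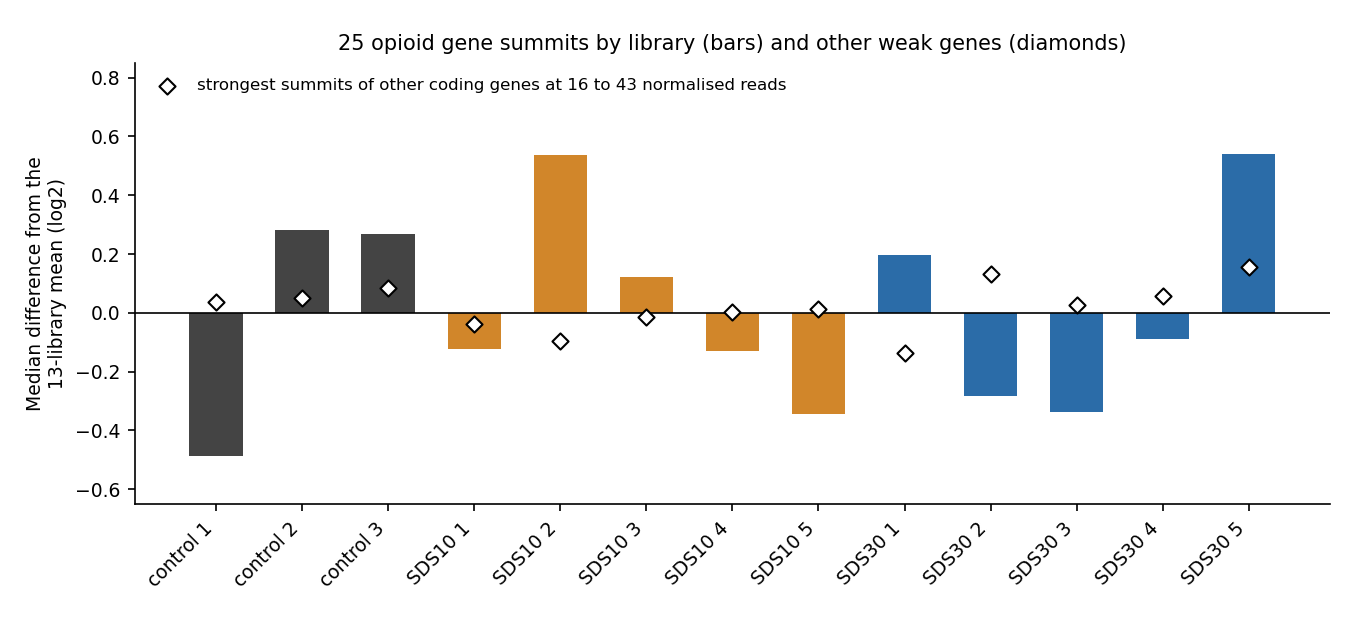
Median difference of the 25 opioid gene summits from their mean over 13 libraries (bars, log2 scale), with the same median for the strongest summits of 1673 other weakly marked protein-coding genes (diamonds), by library. Control replicate 1 is lowest at -0.49, SDS10 replicate 2 and SDS30 replicate 5 are highest at 0.54, and the diamonds stay between -0.14 and 0.16. Medians over sets of such unlike size are not directly comparable.

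Whether social defeat changed the mark was asked first of the receptor genes. Oprm1 encodes the mu receptor, the main target of morphine. Its strongest summit (chr10:6788652-6788653) held 20.3, 36.5 and 37.8 normalised reads in control replicates 1 to 3, 18.9, 48.0, 35.8, 32.2 and 19.5 in SDS10 replicates 1 to 5, and 25.8, 28.1, 21.0, 24.0 and 44.2 in SDS30 replicates 1 to 5. The means were 31.5 ± 9.78 (SD, n = 3), 30.9 ± 12.2 (SD, n = 5) and 28.6 ± 9.08 (SD, n = 5), and all 3 groups overlapped. The log2 fold change was -0.06 ± 0.32 (SE) in SDS10 and -0.13 ± 0.32 in SDS30 against control. The 95% interval in SDS30 ran from -0.78 to 0.52, so falls and rises inside it, and no change, are all compatible with these values.

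Oprd1 encodes the delta receptor. The strongest summit (chr4:132144313-132144314) held 17.5, 41.7 and 59.6 in control replicates 1 to 3, the widest control spread relative to the mean among the 7 strongest summits. It held 32.8, 74.8, 27.3, 33.9 and 32.5 in SDS10 and 40.7, 15.6, 28.4, 18.0 and 52.9 in SDS30. Means were 39.6 ± 21.1 (SD, n = 3), 40.3 ± 19.5 (SD, n = 5) and 31.1 ± 15.7 (SD, n = 5), and the log2 fold changes were 0.09 ± 0.37 (SE) in SDS10 and -0.32 ± 0.37 in SDS30 against control. Both signs depended on control replicates: without control replicate 1 the values were -0.40 and -0.81, and without control replicate 3 they were 0.46 and 0.05. A summit 730 bp downstream of the start (chr4:132143755-132143756) had the smallest p of the members' other summits in both comparisons with control. Control libraries had a mean of 16.3 ± 9.30 (SD, n = 3), SDS10 libraries of 21.6 ± 8.86 (SD, n = 5) and SDS30 libraries of 24.9 ± 7.53 (SD, n = 5). Control replicate 1 was the lowest of all libraries there at 5.59, while control replicates 2 and 3 were at 22.6 and 20.6, and SDS30 libraries ranged from 14.1 to 32.1. The log2 fold change of 0.74 ± 0.40 (SE) in SDS30 did not pass the test (limma, unadjusted p = 0.0716, adjusted p = 1).

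Oprk1 encodes the kappa receptor, whose activation is known to be aversive. Its only summit (chr1:5588437-5588438) was the weakest of the strongest summits. It held 9.08, 24.3 and 18.3 in control replicates 1 to 3, 16.4, 7.06, 34.8, 0 and 8.94 in SDS10 replicates 1 to 5, and 21.1, 10.9, 16.8, 19.7 and 24.6 in SDS30 replicates 1 to 5. These stand for 13, 28 and 16 reads, 20, 5, 37, 0 and 11 reads, and 27, 7, 16, 23 and 34 reads. The count of 0 in SDS10 replicate 4, the shallowest library, allows a level of up to 5.08 normalised reads (3 reads, counting error only). SDS10 thus held both the highest and the lowest library of all 13, with a mean of 13.4 ± 13.3 (SD, n = 5). Control was at 17.2 ± 7.68 (SD, n = 3) and SDS30 at 18.6 ± 5.15 (SD, n = 5).

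The log2 fold change of Oprk1 was -0.97 ± 0.64 (SE; 95% interval -2.26 to 0.32) in SDS10 and 0.16 ± 0.64 in SDS30 against control. The value in SDS10 was -0.19 without SDS10 replicate 4, the library with 0 reads, and -1.48 without SDS10 replicate 3. In SDS30 against SDS10 it was 1.13 ± 0.55 (SE; 95% interval 0.009 to 2.25; limma, unadjusted p = 0.0483, adjusted p = 0.963). The latter was the 1 of 25 summits with an unadjusted p under 0.05 in any comparison, where 5.12% of all summits had one in SDS30 against SDS10. Its size depended on single libraries: without SDS10 replicate 4 the value was 0.35, and without SDS10 replicate 3 it was 1.64. The sign did not turn without any 1 library. The fit of gene totals, where Oprk1 holds this same summit, gave a 95% interval of -0.25 to 2.51 (limma, unadjusted p = 0.103). On the recovered reads, edgeR gave 0.40 with an unadjusted p of 0.340 and DESeq2 gave 0.44 with an unadjusted p of 0.469.

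Oprl1 encodes the nociceptin receptor and had the highest control mean of the 7 genes, within the SD of the next, Penk, which was higher in SDS10. The strongest summit (chr2:181715304-181715305) held 40.5, 46.9 and 44.7 in control, 31.99, 56.5, 42.4, 37.3 and 27.6 in SDS10, and 49.3, 24.99, 34.7, 47.1 and 64.5 in SDS30. At this summit the controls lay close together at 44.0 ± 3.24 (SD, n = 3), inside the range of both stressed groups. Those groups were at 39.1 ± 11.1 (SD, n = 5) and 44.1 ± 15.04 (SD, n = 5). The log2 fold changes were -0.21 ± 0.27 (SE) and -0.06 ± 0.27 against control, and 0.14 ± 0.23 between the durations. Controls lay further apart at the summit 160 bp away, with 29.3, 39.1 and 57.3, and in the Oprl1 total, with 136 ± 33.2 (SD, n = 3).

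Of the peptide genes, Penk encodes proenkephalin, the source of the enkephalins. The strongest summit (chr4:4138776-4138777) held 34.2, 44.3 and 48.1 in control, 44.3, 69.2, 64.0, 32.2 and 42.3 in SDS10, and 44.6, 29.7, 24.2, 35.9 and 45.7 in SDS30. SDS10 replicates 2 and 3 were above all other libraries, and SDS30 replicates 2 and 3 below all others. Means were 42.2 ± 7.18 (SD, n = 3), 50.4 ± 15.6 (SD, n = 5) and 36.0 ± 9.32 (SD, n = 5). The log2 fold change was 0.21 ± 0.26 (SE) in SDS10 and -0.25 ± 0.26 in SDS30 against control, comparisons that share the control libraries. The direct difference of SDS30 from SDS10 was -0.46 ± 0.23 (SE; 95% interval -0.92 to 0.007) and did not pass (limma, unadjusted p = 0.0534, adjusted p = 0.963). DESeq2 gave -0.46 with an unadjusted p of 0.0449 and no adjusted p. The limma value stayed between -0.60 and -0.33 without any 1 library. The total over all 4 Penk summits gave a smaller difference of -0.27 ± 0.20 (SE).

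Pdyn encodes prodynorphin, the source of the ligands of the kappa receptor. The strongest summit (chr2:129700000-129700001) held 26.6, 54.7 and 42.4 in control, 14.8, 55.1, 25.4, 37.3 and 26.8 in SDS10, and 42.3, 40.6, 30.5, 32.5 and 50.7 in SDS30. SDS10 held the lowest and the highest of the 13 libraries, and the groups overlapped. Means were 41.2 ± 14.1 (SD, n = 3), 31.9 ± 15.2 (SD, n = 5) and 39.3 ± 8.13 (SD, n = 5), with a log2 fold change of -0.43 ± 0.31 (SE; -0.71 without control replicate 1, -0.19 without SDS10 replicate 1) in SDS10 and -0.03 ± 0.31 in SDS30. In SDS30 against SDS10 it was 0.40 ± 0.27 (SE), 0.16 without SDS10 replicate 1 and 0.62 without SDS10 replicate 2. The other Pdyn summit (chr2:129699771-129699772) gave 0.46 ± 0.26 (SE) between the durations and the total over both 0.41 ± 0.23, neither of which passed (limma, adjusted p = 0.963 and 0.833). Control totals had a mean of 73.4 ± 26.5 (SD, n = 3), SDS10 totals of 56.9 ± 16.7 (SD, n = 5) and SDS30 totals of 74.1 ± 12.8 (SD, n = 5). In the same comparison of the durations, 5 of the 6 inhibitory markers with a summit had positive log2 fold changes and 1 a negative one, with a median of 0.32 and 0 called. Among them was Pvalb, named after its values were seen, at 0.65 ± 0.17 (SE; limma, adjusted p = 0.963). Of the 6 striatal markers 0 were higher and 6 lower there, and of all protein-coding genes 4811 were higher and 10390 lower. The strongest summits of the other peptide genes were at -0.46 (Penk) and 0.05 (Pnoc). The part of inhibitory neurons in the Pdyn values was not tested.

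Pnoc encodes prepronociceptin, the precursor of the ligand of the nociceptin receptor. Its strongest summit (chr14:65423768-65423769) held 20.3, 36.5 and 26.4 in control, 22.1, 33.9, 34.8, 28.8 and 16.3 in SDS10, and 37.6, 28.1, 16.8, 27.4 and 30.4 in SDS30. The 3 group means were within 1 unit of each other, at 27.7 ± 8.19 (SD, n = 3), 27.2 ± 7.91 (SD, n = 5) and 28.1 ± 7.47 (SD, n = 5). The log2 fold changes were -0.04 ± 0.31 (SE) in SDS10 and 0.01 ± 0.31 in SDS30 against control, with 95% intervals of -0.68 to 0.60 and -0.63 to 0.65.

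**Figure D4:**
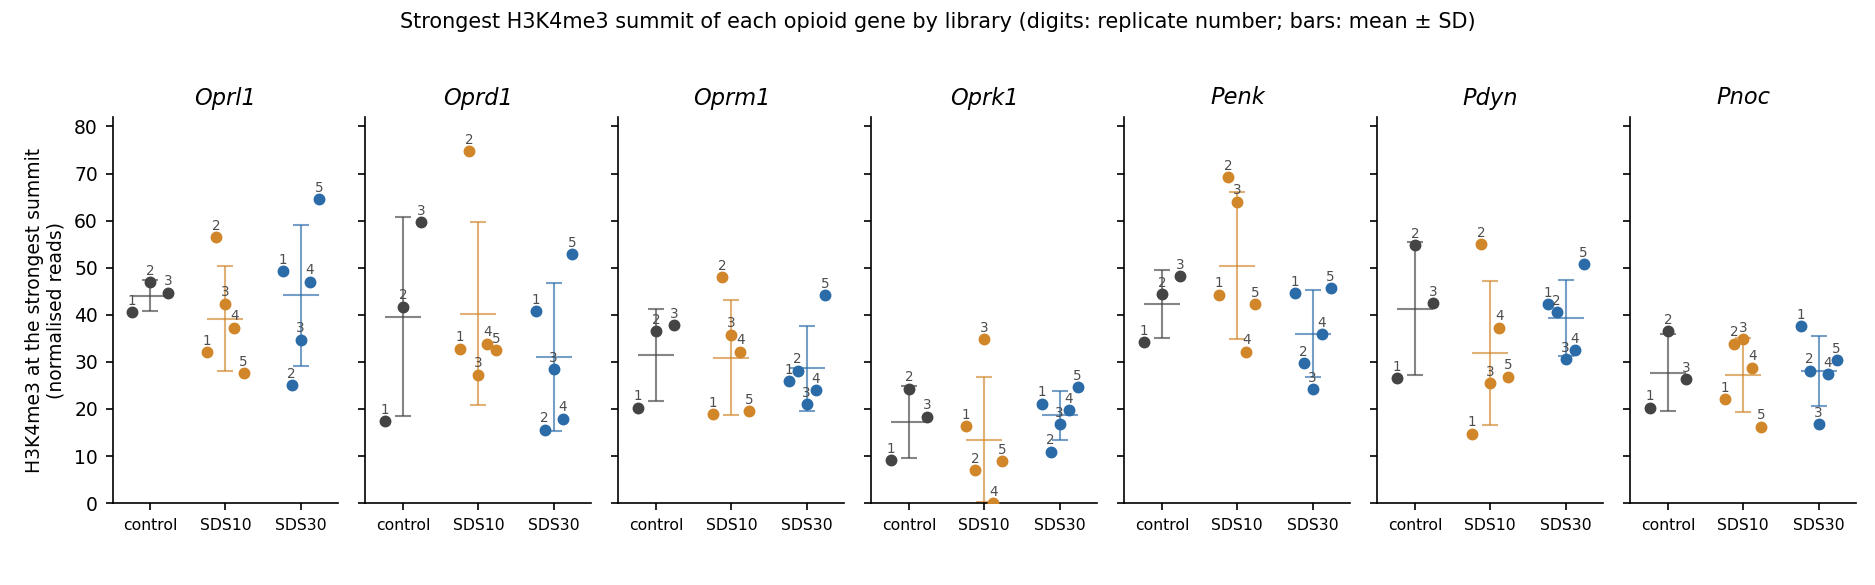
Normalised reads at the strongest summit of each opioid gene (y), 1 point per library labelled with its replicate number, with the mean and SD of each group (3 control, 5 SDS10, 5 SDS30). The groups overlap for every gene, and SDS10 replicate 2 and SDS30 replicate 5 are above the 13-library mean at 6 and 7 of the 7 genes.

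No opioid gene passed the test in any comparison. At an adjusted p under 0.05, 0 of 25 summits and 0 of 7 gene totals were called in SDS10 against control, as were 0% of all summits and 0% of all gene totals (limma; 3.21% of summits and 3.31% of gene totals had an unadjusted p under 0.05). After 30 days, 0 of 25 summits and 0 of 7 totals were called against control, again with 0% of all features, and 3.41% of summits and 2.23% of gene totals had an unadjusted p under 0.05. Between the durations the calls were again 0 of 25 and 0 of 7, with 0% of all features called and 5.12% of summits and 5.84% of gene totals at an unadjusted p under 0.05. edgeR on the recovered reads also called 0 summits in each comparison. DESeq2 called 0 as well, but in SDS30 against SDS10 it gave no adjusted p for any of the 7 strongest summits, so that its 0 says nothing about them. In SDS10 against control, edgeR had 4588 and DESeq2 5409 summits at an unadjusted p under 0.05.

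Groups did not separate at any opioid gene, which was also the case at nearly all other features. The groups overlapped at all 25 summits and in all 7 totals in each comparison. Over all features, only 2.98% of tested summits and 3.97% of gene totals did not overlap between SDS10 and control. The shares were 2.96% and 2.25% between SDS30 and control, and 0.72% and 0.906% between the durations. With shares this small, the overlap is nothing particular to the opioid genes. Of the members' other summits, a summit inside both Oprm1 and Ipcef1 (chr10:6979685-6979686) had the smallest p in SDS30 against SDS10, with means of 15.3 ± 10.7 (SD, n = 5) and 22.1 ± 7.78 (SD, n = 5) and a log2 fold change of -0.73 ± 0.39 (SE). SDS30 replicate 2 was at 3.12 and SDS30 replicate 1 at 31.3 there, so the SDS30 libraries alone spanned the range of all others.

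The signs of the fold changes were mixed. Of the 7 strongest summits, 2 were higher and 5 lower in SDS10 against control, 2 higher and 5 lower in SDS30 against control, and 4 higher and 3 lower in SDS30 against SDS10. Over all 25 summits the counts were 11 higher and 14 lower, 11 and 14, and 10 and 15. The medians of the 7 were -0.06, -0.06 and 0.05 on the log2 scale, where the medians over the strongest summits of all protein-coding genes were 0.01, -0.07 and -0.08.

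Because control replicate 1 was lowest at these same genes, leaving it out lowers every fold change against control by construction, and the signs are given without each control in turn. In SDS30 against control, 0 of the 7 strongest summits were higher and 7 lower without control replicate 1 (median -0.31 on the log2 scale), 3 higher and 4 lower without control replicate 2 (median -0.002), and 4 higher and 3 lower without control replicate 3 (median 0.018). In SDS10 against control, the counts were 1 higher and 6 lower (median -0.35), 4 and 3 (median 0.063), and 3 and 4 (median -0.054). The direction over the 7 genes thus turned with the control library left out. Of the single genes, Oprm1 was at -0.35 in SDS10 and -0.41 in SDS30 without control replicate 1, and Penk at 0.07 and -0.39. SDS10 replicate 2 and SDS30 replicate 5, the highest libraries at these genes, shift their own group in the same way. Without SDS10 replicate 2, the median in SDS10 against control was -0.24, and without SDS30 replicate 5 the median in SDS30 against control was -0.22. No summit or total of the 7 genes, nor of any other gene, passed the adjusted threshold in these fits.

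**Figure D5:**
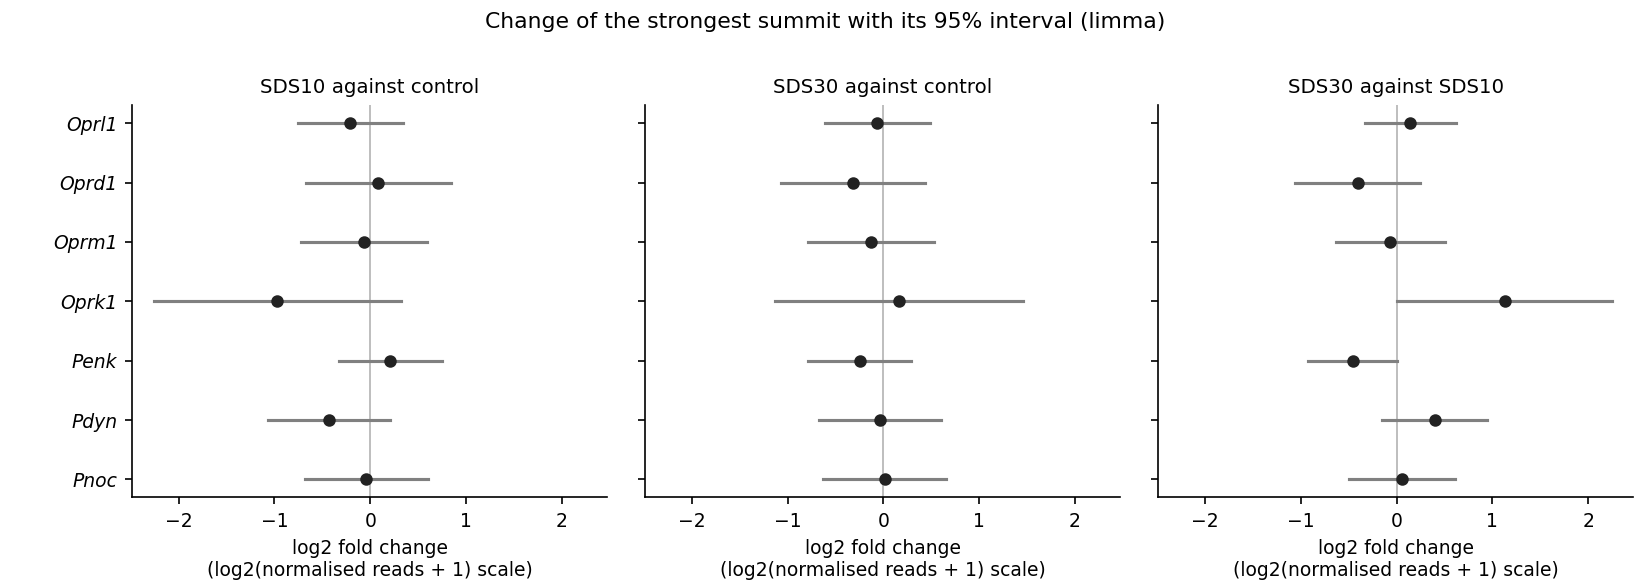
Log2 fold change of the strongest summit of each opioid gene (x, on the log2(normalised reads + 1) scale) with its 95% interval from limma, in the 3 comparisons. The intervals include 0 except for Oprk1 in SDS30 against SDS10 (1.13, interval 0.009 to 2.25), and those of Oprk1 are the widest. In the fit of gene totals, not shown, the interval of the same Oprk1 summit was -0.25 to 2.51 and included 0.

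Member genes followed each other over the libraries to different degrees. Over the 13 libraries, which share their depth and composition between genes, the strongest summit of Oprm1 had a Pearson r of 0.76 with that of Pdyn, 0.73 with Pnoc, 0.66 with Oprl1 and 0.65 with Oprd1. Penk and Pdyn were at 0.17. Oprk1 had r between -0.04 and 0.29 with the other 6 genes, but SDS10 replicate 4 held 0 reads there. That 1 library can weigh heavily on each of these values, and r without it was not computed. Among pairs of a receptor and its ligand, Oprk1 and Pdyn were at -0.04, Oprm1 and Penk at 0.58, Oprl1 and Pnoc at 0.59, and Oprd1 and Penk at 0.62. Other pairs reached as much, such as Oprm1 and Pnoc at 0.73, so these pairs do not stand out. These values are descriptions, since 13 points with few reads each leave them imprecise.

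The genes on other chromosomes most like each member over the 13 libraries were found among 13527 to 14206 protein-coding genes, a search that returns high values by its size alone. For Oprm1 they were Shc3 and Stac2 (r of 0.91 each), and for Oprd1 Htr1a, which encodes a serotonin receptor, and Abcc8 (0.94 and 0.92). Oprl1 gave Crybg2 and Acp7 (0.93 and 0.91) and Oprk1 gave Eif3c and Ptgdr (0.91 and 0.88). For the peptides they were Rbm28 and Lrp11 for Penk (0.92 and 0.91), Coro7 and Nhsl2 for Pdyn (0.85 and 0.84) and Vwc2l and Tnfsf13b for Pnoc (0.90 and 0.88). By rank (Spearman), the genes most like Oprk1 were at 0.76 (Eif3c) and 0.51 (Ptgdr). The value for Ptgdr was the lowest of all these pairs, and the next lowest was 0.73 for Nhsl2 with Pdyn.

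Another 48 genes of opioid signalling covered precursor processing, peptide degradation, G protein subunits, effectors, desensitisation, RGS proteins and transcription factors, and all had a tested summit. In each comparison 0 of all 152270 tested summits were called, and so 0 of these 48 genes. In SDS10 against control, 26 were higher and 22 lower, with a median log2 fold change of 0.02 against 0.01 over all protein-coding genes. In SDS30 against control, 12 were higher and 36 lower, with a median of -0.15 against -0.07, and 5190 protein-coding genes were higher and 10011 lower. In SDS30 against SDS10, 15 were higher and 33 lower, with a median of -0.10 against -0.08.

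By role in SDS30 against control, 0 effector genes were higher and 10 lower, and 0 transcription factors higher and 7 lower, with medians of -0.21 and -0.17. These counts stand beside the 10011 of 15201 protein-coding genes that were lower in that comparison. Precursor processing genes were 1 higher and 5 lower, peptide degradation genes 2 and 3, G protein subunits 2 and 5, desensitisation genes 4 and 2, and RGS proteins 3 and 3. The effector nearest to a call was Adcy5, an adenylyl cyclase, with an SDS30 mean of 65.7 ± 14.95 (SD, n = 5), a control mean of 89.7 ± 12.6 (SD, n = 3) and an SDS10 mean of 88.3 ± 24.7 (SD, n = 5). Its log2 fold change was -0.46 ± 0.20 (SE; limma, unadjusted p = 0.028, adjusted p = 1) against control and -0.41 ± 0.17 against SDS10. Atf2, a factor that binds cyclic AMP response elements, had an SDS30 mean of 90.8 ± 7.90 (SD, n = 5) and a control mean of 113 ± 19.2 (SD, n = 3). Gnao1, which encodes the G protein alpha subunit Go, had an SDS30 mean of 84.1 ± 15.8 (SD, n = 5), an SDS10 mean of 64.6 ± 4.72 (SD, n = 5) and a control mean of 67.7 ± 11.5 (SD, n = 3), with a log2 fold change of 0.36 ± 0.16 (SE) between the durations.

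Grk6, a receptor kinase, had an SDS10 mean of 105 ± 5.96 (SD, n = 5), an SDS30 mean of 108 ± 7.93 (SD, n = 5) and a control mean of 89.8 ± 12.2 (SD, n = 3), with log2 fold changes of 0.23 and 0.27. Rgs17, a regulator of G protein signalling, was at 128 ± 26.1 (SD, n = 5) in SDS10 against 105 ± 13.8 (SD, n = 3), while Gnaz, an alpha subunit, was at 77.3 ± 11.7 (SD, n = 5) against 95.2 ± 11.2 (SD, n = 3) and Kcnj5, a potassium channel subunit, had a log2 fold change of -0.39. Kcnip3, also named DREAM and known as a repressor of Pdyn, had an SDS30 mean of 68.4 ± 10.9 (SD, n = 5) and an SDS10 mean of 57.5 ± 9.55 (SD, n = 5). Npepps, an aminopeptidase gene, was at 91.5 ± 14.3 (SD, n = 5) against 109 ± 9.51 (SD, n = 5) in the same comparison. None of these passed the adjusted threshold.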

How the data were processed

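H3K4me3 ChIP-seq of prefrontal cortex was read from 13 libraries (3 control, 5 SDS10, 5 SDS30), and the input library was not analysed here. Chromatin was cut with micrococcal nuclease, immunoprecipitated, amplified and sequenced as single reads, per the labels' protocols. The submitters' processing notes name the builds mm10 and GRCm38.p5 and the tools Bowtie2, DESeq2, MACS2 and Trimmomatic. Tool versions, duplicate handling and the counting window were not given in the sources used here. Each deposited signal is a normalised read count per summit, and the authors scaled every library by a single factor, as the values show: 100% were whole multiples of a library's smallest step (tolerance 0.001 reads). The deposited peak score, whose scale no header explains, was not used.

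From these, limma (3.58.1, trend, log2(value + 1), R 4.3.3) was fitted over all 13 libraries with 1 mean per group. It tested 152270 summits kept by filterByExpr (937 left out) and, separately, 20868 gene totals, each the sum of a gene's summits within 2 kb. Adjustment was by Benjamini-Hochberg over all features of a fit, and the threshold was 0.05. The script was tested on simulated data. The strongest summit of a gene is the one with the highest mean over the 13 libraries. Gene bounds, starts and promoters came from RefSeq (GRCm38.p6). Levels between genes are compared per summit.

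The members and gene lists were chosen with earlier results of these data known. The text names all 7 members, in each comparison the other summit of a member with the smallest p, the 2 pathway genes with the smallest p in each direction, and for each member the 2 most like protein-coding genes on other chromosomes, without pseudogenes, gene models or olfactory and vomeronasal receptor genes. Alternatives were other pseudocounts, no filter, other scaling, edgeR (4.0.16) and DESeq2 (1.42.0) on recovered reads, a depth covariate, a replicate block, the summit nearest to the start, and leaving out each library. Reads carry no molecular identifiers, so floors cover counting error only.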

Additional observations from a re-analysis of the deposited data

Results flagged for a closer look

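Of 62 groups of 5 libraries at the opioid gene summits and totals, 5 held a library set far apart from the other 4, where chance gives about 1 in 20. SDS10 replicate 2 stood above the others at 2 summits of the delta receptor gene Oprd1. It was at 74.8 normalised reads at the strongest summit, where the other 4 lay between 27.3 and 33.9, and at 62.1 at the summit 21 bp upstream of the start, where the others lay between 18.8 and 26.0. The Oprd1 total of the same library, which contains both, was 277, with the others between 141 and 168. At Penk, SDS10 replicate 4, the shallowest library, was low at the summit 125 bp outside the gene, with 18.6 against 42.7 to 52.2. SDS10 replicate 5 was high at the Penk summit 324 bp outside the gene, with 25.2 against 14.1 to 16.9.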

How the results depend on the processing

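Every count of opioid gene summits or totals past the threshold was 0 under every alternative run, and so was the count over all features. DESeq2 gave no adjusted p for the 7 strongest summits in SDS30 against SDS10, so its 0 there is void for them. In 432 values of single members under alternatives other than leaving out a library, the log2 fold change kept its sign in 415 and turned in 17, and the lowest adjusted p was 0.831. The cause of the 17 was not tested. With the summit nearest to a start in place of the strongest, Oprd1 in SDS10 was at -0.091 and Oprl1 at 0.084 in SDS10 and 0.0373 in SDS30 against control and at -0.0466 between the durations. With quantile normalisation, the Pnoc summit in SDS30 was at -0.0479, the totals in SDS10 at 0.0023 for Oprm1, 0.0077 for Oprl1 and 0.0025 for Pnoc, and the Pnoc total between the durations at -0.0401. In SDS30, the Oprl1 summit was at 0.0442 and the Pnoc total at 0.0172 in edgeR, and at 0.0433 and 0.0166 in DESeq2. With a depth covariate the Pnoc summit in SDS30 was at -0.007. Without the 2 summits near the Ipcef1 start, an alternative chosen after seeing the data, the Oprm1 total between the durations was at 0.0852.

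Replicate numbers did not pair the libraries: 3 of 11 same-numbered pairs had a correlation of their deviations over 0.1, and 2 of 13 libraries correlated best with their own number. With a replicate block 0 features were called, the Pnoc summit in SDS10 was at 0.021 and the Pnoc total in SDS30 at 0.0035.

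Leaving out each library gave 546 values, of which 64 turned sign, in 25 of 42 results, with a lowest adjusted p of 0.556. In SDS10 against control, the strongest summits ranged from -0.401 to 0.456 for Oprd1, -0.346 to 0.088 for Oprm1 and -0.236 to 0.173 for Pnoc, and the totals from -0.262 to 0.364 for Oprd1, -0.247 to 0.102 for Oprl1, -0.361 to 0.171 for Oprm1 and -0.192 to 0.105 for Pnoc. In SDS30 against control, the strongest summits ranged from -0.806 to 0.051 for Oprd1, -0.218 to 0.447 for Oprk1 (also its total), -0.216 to 0.117 for Oprl1, -0.411 to 0.023 for Oprm1, -0.310 to 0.198 for Pdyn and -0.183 to 0.226 for Pnoc, and the totals from -0.456 to 0.171 for Oprd1, -0.185 to 0.164 for Oprl1, -0.426 to 0.107 for Oprm1, -0.222 to 0.317 for Pdyn and -0.157 to 0.141 for Pnoc. Between the durations, the strongest summits ranged from -0.011 to 0.323 for Oprl1, -0.229 to 0.111 for Oprm1 and -0.111 to 0.218 for Pnoc, and the totals from -0.042 to 0.201 for Oprl1, -0.228 to 0.103 for Oprm1 and -0.071 to 0.166 for Pnoc. Strongest summits of these genes held a median of 33 reads, and small changes there may have been missed. In each comparison 0 of all 152270 tested summits were called, those of more strongly marked genes included. Whether low read counts limited the calls at the opioid genes was not tested.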
